A study of Homo sapiens with 4 samples.

Results

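PURPL, PTCHD4 and TRIM22 are 3 human genes with reported links to the tumour suppressor p53, and they were followed here on 4 arrays of a melanoma cell line. They were chosen by their measured values on these same arrays, namely a high level after 24 h of C646 relative to DMSO, so that difference describes the choice and is given with no test. Every probe set annotated to one of the 3 symbols alone was taken, which gave 4 of 27631 probe sets: 1 for PURPL, 2 for PTCHD4 and 1 for TRIM22. A further probe set annotated to both TRIM5 and TRIM22 is described apart, because its signal belongs to neither gene alone.

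The cells were WM35, a line from a radial growth phase melanoma. C646, a small-molecule inhibitor of the acetyltransferases p300 and CBP, was given at 20 µM, and the vehicle was DMSO at 0.2%. RNA was taken at 6 h and at 24 h, and each of the 4 groups (DMSO 6 h, DMSO 24 h, C646 6 h, C646 24 h) was measured on 1 Affymetrix Human Exon 1.0 ST array. Nothing else was varied: all groups were of the same unmodified line, so a group is 1 sample of 1 line. There is thus no replicate spread, no p-value is given, and the number of arrays limits the precision. Values are the authors' log2 expression values, so a difference of 1 is a 2-fold difference.

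p53 is a transcription factor that is kept scarce in unstressed cells, mainly by the ubiquitin ligase MDM2, and that switches on genes of cell cycle arrest, repair and death when it is stabilised. p300 and CBP acetylate histones and also p53 itself, and they serve p53 as coactivators. PURPL is a long noncoding RNA whose name stands for p53 upregulated regulator of p53 levels, and it is known to hold basal p53 down. PTCHD4, also called PTCH53, encodes a membrane protein related to the Hedgehog receptor Patched and has been described as a p53-induced brake on Hedgehog signalling. TRIM22 encodes a ubiquitin ligase of the tripartite motif family that interferons induce and that restricts viruses, and it has been described as a p53 target as well.

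The promoters of PURPL and PTCHD4 are shown because both hold the same uncommon sequence feature. RefSeq's promoter windows on GRCh38.p14, which run from 250 bases before to 50 bases after a transcript start, matched 2 of the 3 genes, all but TRIM22. They were searched for the p53 half-site consensus, a 10-letter motif that reads the same on both strands. In the windows below, capitals mark 2 half-sites that adjoin with no base between them, and each window is written 5′ to 3′ along the gene's strand.
PURPL, chr5:27472042-27472341, plus strand: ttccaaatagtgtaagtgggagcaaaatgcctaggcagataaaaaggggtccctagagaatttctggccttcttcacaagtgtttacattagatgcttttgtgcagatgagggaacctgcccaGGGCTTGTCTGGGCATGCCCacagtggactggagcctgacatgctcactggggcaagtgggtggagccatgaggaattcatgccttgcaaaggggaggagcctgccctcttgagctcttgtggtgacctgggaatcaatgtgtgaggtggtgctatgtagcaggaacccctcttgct
PTCHD4, chr6:48111148-48111447, minus strand: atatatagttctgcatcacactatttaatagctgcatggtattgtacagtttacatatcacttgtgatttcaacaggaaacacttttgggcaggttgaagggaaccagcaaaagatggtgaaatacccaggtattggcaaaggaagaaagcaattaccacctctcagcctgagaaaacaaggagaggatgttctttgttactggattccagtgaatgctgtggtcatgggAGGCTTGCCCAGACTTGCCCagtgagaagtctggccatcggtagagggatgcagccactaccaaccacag
The PURPL match, GGGCTTGTCTGGGCATGCCC, covers bases 127 to 108 before the transcript start, at chr5:27472165-27472184. The PTCHD4 match, AGGCTTGCCCAGACTTGCCC, covers bases 20 to 1 before the outermost of the gene's 3 listed starts, at chr6:48111198-48111217. The other 2 PTCHD4 windows, at inner starts, held no half-site.

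Of 35116 promoter windows in the table, 6.63% held a half-site and 6 windows (0.0171%) held 2 adjoining ones. With up to 13 bases allowed between them there were 10 such windows (0.0285%). The 4 windows of other genes with adjoining half-sites belonged to LNCTAM34A, a noncoding RNA of the MIR34A locus, to EIF2AK3-AS1 and to 2 uncharacterised loci, and none of these had a probe set of its own. The motif was searched after the genes had been chosen. A match is a description of letters and does not show that p53 was bound there.

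PURPL was near the low end of the measured range in 3 of the 4 groups and stood clear of it in 1. Its values were 3.79 with DMSO at 6 h, 3.96 with DMSO at 24 h, 4.12 with C646 at 6 h and 6.36 with C646 at 24 h. The C646 array of 24 h was higher than each of the other 3 arrays by at least 2.23, while those 3 lay within 0.33 of each other. The level below which probe sets were set aside as close to background was a mean of 3.961, and without the C646 array of 24 h the PURPL mean was 3.957, just under it. PURPL therefore passed that filter only through the array on which it was high, and its folds and ranks are read against a reference close to background.

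C646 minus DMSO for PURPL was 0.33 at 6 h and 2.40 at 24 h, the latter a 5.28-fold difference. Between 6 h and 24 h the DMSO arrays differed by 0.16 (1.12-fold) and the C646 arrays by 2.23 (4.71-fold). At 24 h 189 probe sets of the 16579 above the filter exceeded DMSO by 2-fold or more with C646 (1.14%), and PURPL was the 4th highest among them. All 4 probe sets of the 3 genes were past 2-fold in that comparison, which is how they were chosen.

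PTCHD4 was read by a pair of probe sets, both highest with C646 at 24 h. They differed over how far the vehicle cells moved. Probe set 2956206, the one of higher mean, read 4.75 with DMSO at 6 h, 5.11 with C646 at 6 h, 6.44 with DMSO at 24 h and 7.57 with C646 at 24 h. Both 24 h arrays lay above both 6 h arrays there. Probe set 2956217 read 4.32 with DMSO at 6 h, 4.49 with C646 at 6 h, 4.68 with DMSO at 24 h and 6.11 with C646 at 24 h, so that only the last array stood well apart. Both probe sets lay above the filter level on every array.

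For probe set 2956206 the DMSO arrays differed by 1.68 between 6 h and 24 h, a 3.21-fold difference without any C646. Over time in DMSO only 9 probe sets (0.0543% of those above the filter) were higher by 2-fold or more, and this one was the 2nd highest of all. For probe set 2956217 the same drift was 0.36 (1.29-fold), so the 2 readings of 1 gene were 1.32 apart on the log2 scale. The drift of PTCHD4 in vehicle was thus past 2-fold on 1 of its 2 probe sets. On the other, the drift of 0.36 still exceeded that of 98.2% of the probe sets above the filter.

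C646 minus DMSO at 24 h was 1.13 (2.18-fold) on probe set 2956206 and 1.43 (2.70-fold) on probe set 2956217. Both readings were past 2-fold and 0.30 apart. At 6 h the differences were 0.36 and 0.17. Under C646 the 24 h array exceeded the 6 h array by 2.45 and 1.62. Because DMSO at 24 h was itself above DMSO at 6 h on probe set 2956206, the difference there depended on the vehicle array used. With both DMSO arrays averaged as the reference it was 1.97 at 24 h and -0.48 at 6 h, so the sign at 6 h turned.

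TRIM22 moved in vehicle by more than PURPL and by less than PTCHD4 probe set 2956206. It read 5.27 with DMSO at 6 h, 5.53 with C646 at 6 h, 5.93 with DMSO at 24 h and 7.87 with C646 at 24 h. Again the C646 array of 24 h stood apart, by 1.94 above the next array, while the other 3 spanned 0.66. C646 minus DMSO was 0.26 at 6 h and 1.94 at 24 h (3.83-fold), the 15th highest of the probe sets above the filter. The drift in DMSO was 0.66 (1.58-fold), the 67th highest of the probe sets above the filter. The corresponding difference under C646 was 2.34 (5.06-fold). With that averaged reference the 6 h value turned from 0.26 to -0.072, and the 24 h value was 2.27.

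**Figure D1:**
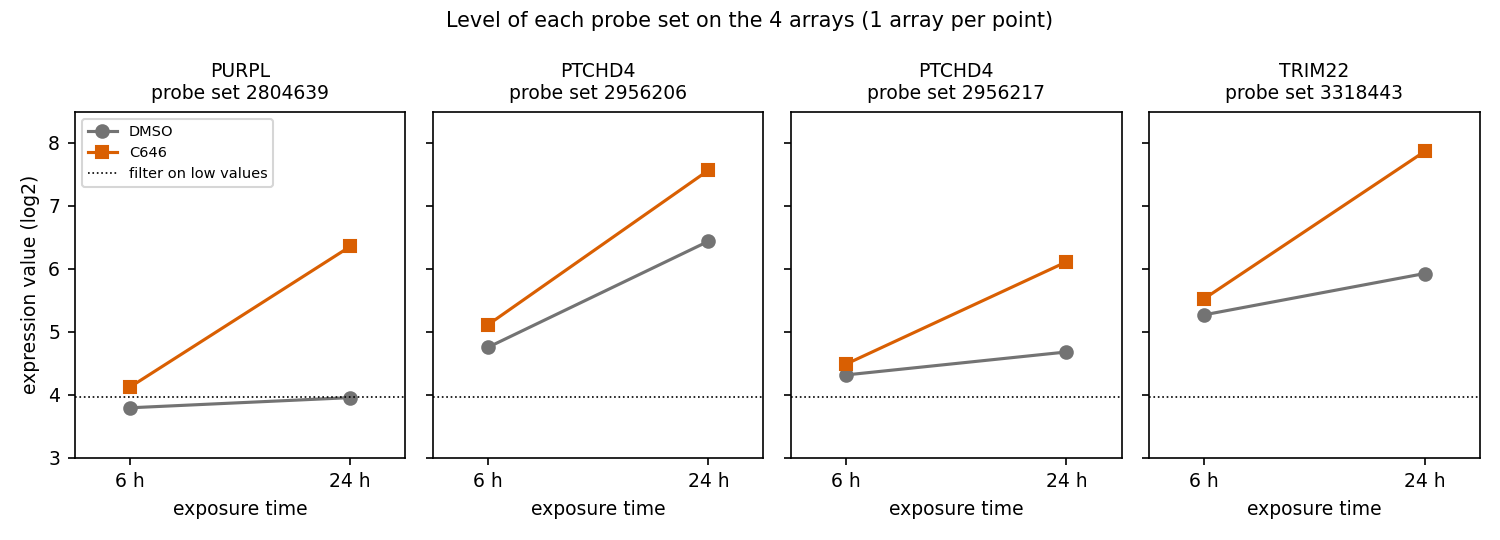
Log2 expression value (y axis) of the 4 probe sets at 6 h and 24 h (x axis), 1 array per point, with DMSO as grey circles and C646 as orange squares; the dotted line is the filter level of 3.96. The C646 point at 24 h is the highest in every panel, and the DMSO line climbs by 1.68 only in the panel of PTCHD4 probe set 2956206.

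The order of the 4 arrays was the same for TRIM22 and both PTCHD4 probe sets: DMSO 6 h, C646 6 h, DMSO 24 h, C646 24 h. PURPL had DMSO 24 h and C646 6 h in the opposite order, 0.17 apart. With 1 array per group it cannot be said which neighbours in these orders differ beyond the spread between samples. As a yardstick, the central 95% of probe sets above the filter differed by -0.36 to 0.32 between both DMSO arrays. The 6 h differences of PURPL (0.33) and PTCHD4 probe set 2956206 (0.36) lay above the upper end of that range, and those of TRIM22 (0.26) and PTCHD4 probe set 2956217 (0.17) lay within it. All 4 lay inside the central 95% of all 6 h differences between C646 and DMSO, which ran from -0.46 to 0.43. At that time 21 probe sets (0.127%) were at least 2-fold higher, none of them from these genes.

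**Figure D2:**
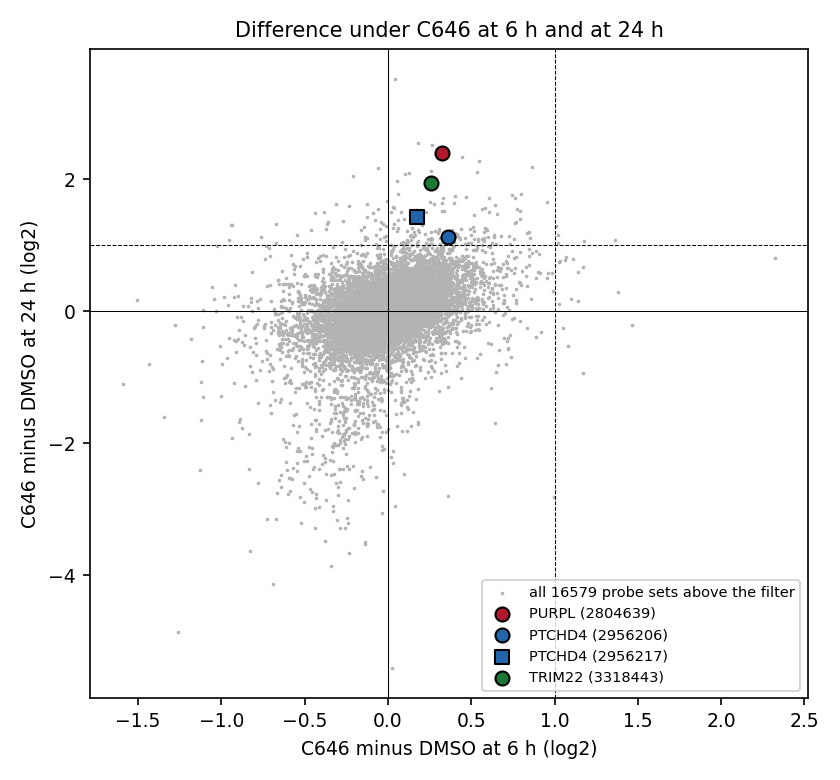
Each grey point is 1 of 16579 probe sets above the filter, with the log2 difference C646 minus DMSO at 6 h on the x axis and at 24 h on the y axis; dashed lines mark 2-fold higher. The 4 coloured probe sets lie between 0.17 and 0.36 on the x axis and between 1.13 and 2.40 on the y axis.

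The difference between times was also compared between vehicle and C646, which share no array in this comparison. Over time, 144 probe sets (0.869%) were at least 2-fold higher under C646. PTCHD4 probe set 2956206 was 3rd, TRIM22 5th, PURPL 9th and PTCHD4 probe set 2956217 26th. These ranks use the C646 array of 24 h by which the genes were chosen, and PURPL passed the filter only through that array. The excess of the C646 difference over the DMSO difference was 2.07 for PURPL, 1.68 for TRIM22, 1.26 for PTCHD4 probe set 2956217 and 0.77 for PTCHD4 probe set 2956206. This quantity equals the 24 h effect minus the 6 h effect. Thus PTCHD4 probe set 2956206 had the largest difference over time of the 4 under C646 and the smallest excess over vehicle.

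**Figure D3:**
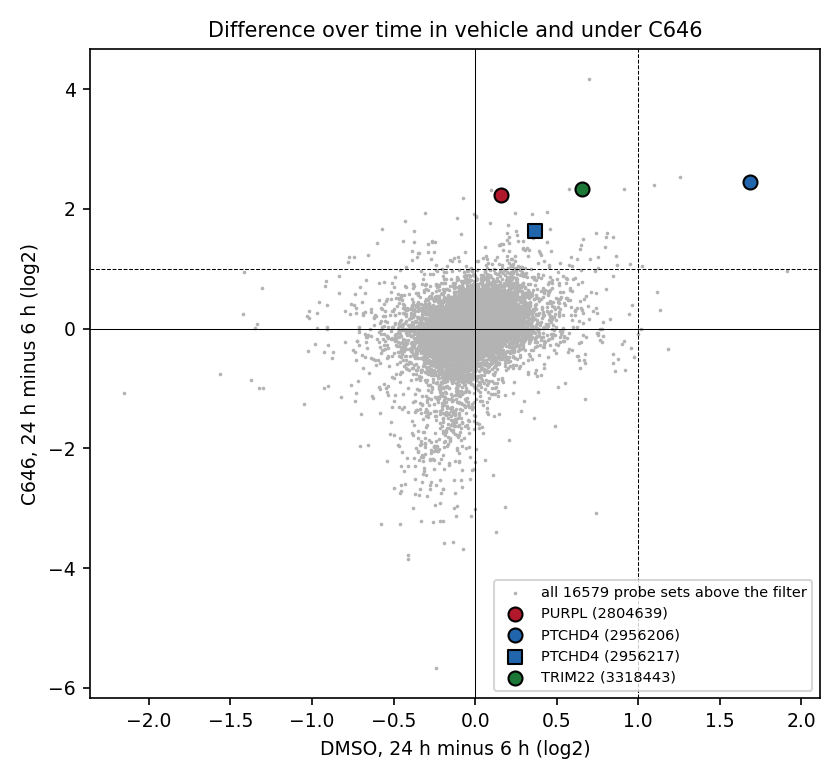
Each grey point is 1 of 16579 probe sets above the filter, with the log2 difference 24 h minus 6 h in DMSO on the x axis and under C646 on the y axis; dashed lines mark 2-fold higher. PURPL lies at 0.16 and 2.23, TRIM22 at 0.66 and 2.34, and the PTCHD4 probe sets at 1.68 and 2.45 and at 0.36 and 1.62.

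TRIM22 sits in a cluster with its close relatives TRIM5, TRIM6 and TRIM34, which had no probe set of their own on this array. The probe set annotated to both TRIM5 and TRIM22 read 5.34 and 5.51 with DMSO and 5.58 and 6.08 with C646, at 6 h and 24 h in each case. Its C646 minus DMSO differences were 0.24 at 6 h and 0.57 at 24 h, below the 1.94 of the probe set for TRIM22 alone. A probe set that covers TRIM6, TRIM34 and their readthrough transcript differed by 0.24 and 0.40. Related genes can share probe sequence, and whether part of the TRIM22 signal came from a relative was not tested.

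Across the tripartite motif family, 35 genes other than TRIM22 had a probe set above the filter. Their median C646 minus DMSO difference at 24 h was 0.02, against 0.03 over all 10707 named genes. Of the 35, 18 lay above 0, against 55.1% of all named genes. Of the 35, 1 (2.86%) was at least 2-fold higher, against 0.971% of all named genes: TRIM52 at 1.05, followed by TRIM38 at 0.69. At the other end were TRIM36 at -0.56 and TRIM28, a corepressor, at -0.45. TRIM22 had the highest value of the family, but it was chosen by this same difference.

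Interferon-stimulated genes, to which TRIM22 belongs by its known regulation, had smaller differences. Of 37 measured genes of that list 30 lay above 0 at 24 h, with a median of 0.32 after 0.11 at 6 h. Over all named genes 55.1% lay above 0 at 24 h. OAS2, an RNA-sensing synthetase, was the 1 gene of 37 (2.70%) to reach 2-fold, against 0.971% of all named genes, at 1.03 after 0.23 at 6 h. SAMD9L followed at 0.97, whereas OAS3 was at -0.58 and ISG20 at -0.14.

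Genes of the Patched family and the Hedgehog pathway were examined beside PTCHD4. The 14 measured genes had a median of 0.07 at 6 h and 0.03 at 24 h, and none differed 2-fold at either time. With 0.971% of all named genes 2-fold higher and 2.88% lower at 24 h, a count of 0 among 14 is near the background. The highest at 24 h was PTCH1, the Hedgehog receptor and itself a target of the pathway. It read 6.62 and 6.67 with DMSO and 7.14 and 7.38 with C646, so that its difference was 0.52 at 6 h and 0.72 at 24 h. SUFU, which restrains the pathway's GLI factors, was at 0.28. CDON, a coreceptor, was at -0.54 and HHIP, which binds the ligands, at -0.38. GLI1, a transcriptional output of the pathway, lay below the filter level on all 4 arrays, with values of 3.61 to 3.82.

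Among p53 target genes other than the 3, 56 had a probe set above the filter, and most of them were higher with C646 at 24 h. At 24 h 51 of 56 lay above 0, against 55.1% of all named genes, with a median of 0.58. Of the 56, 13 (23.2%) were at least 2-fold higher against 0.971% of all named genes. At 6 h 28 of 56 lay above 0, with a median of -0.01 and none past 2-fold either way. Of all named genes 50.7% lay above 0 at 6 h, and 0.112% were higher and 0.0934% lower by 2-fold or more. In DMSO the list drifted by a median of 0.07 between the times, with 39 of 56 above 0 and none past 2-fold. Over all named genes the median drift was -0.01 and 45.3% lay above 0. By 2-fold or more 0.0467% of them were higher and 0.0654% lower in DMSO. In C646 minus DMSO, PURPL (2.40) and TRIM22 (1.94) exceeded every gene of the list at 24 h, and the PTCHD4 readings of 1.13 and 1.43 fell among its 2-fold genes. The 3 genes were chosen by this difference, so their places beside the list describe that choice. The list itself was written with earlier results of these data known, so its share past 2-fold is a description and not an independent test.

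The kinase gene PLK2 was the highest of that list, at 0.33 at 6 h and 1.64 at 24 h. It was followed by EDA2R, a receptor of the tumour necrosis factor receptor family, at 0.04 and 1.55. MDM2 read 7.85 and 8.20 with DMSO and 7.76 and 9.68 with C646, a difference of -0.09 at 6 h and 1.48 at 24 h. PHLDA3, an inhibitor of AKT signalling, was already at 0.52 at 6 h and reached 1.45.

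Of the list's other 2-fold genes, the oxidoreductase gene TP53I3 was at 1.32, the adaptor gene PIDD1 at 1.30, FAS, which encodes a death receptor, at 1.23 and the pore-forming BAX at 1.00. The remaining ones were CYFIP2 at 1.24, TRIAP1 at 1.15, TP53INP1 at 1.11, RPS27L at 1.09 and the iron-sulfur scaffold gene ISCU at 1.04. Of the list, 1 gene was at least 2-fold lower, against 2.5% of all probe sets: E2F7, a repressor of S phase genes, at -1.65. APAF1, which builds the apoptosome, was at -0.67.

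**Figure D4:**
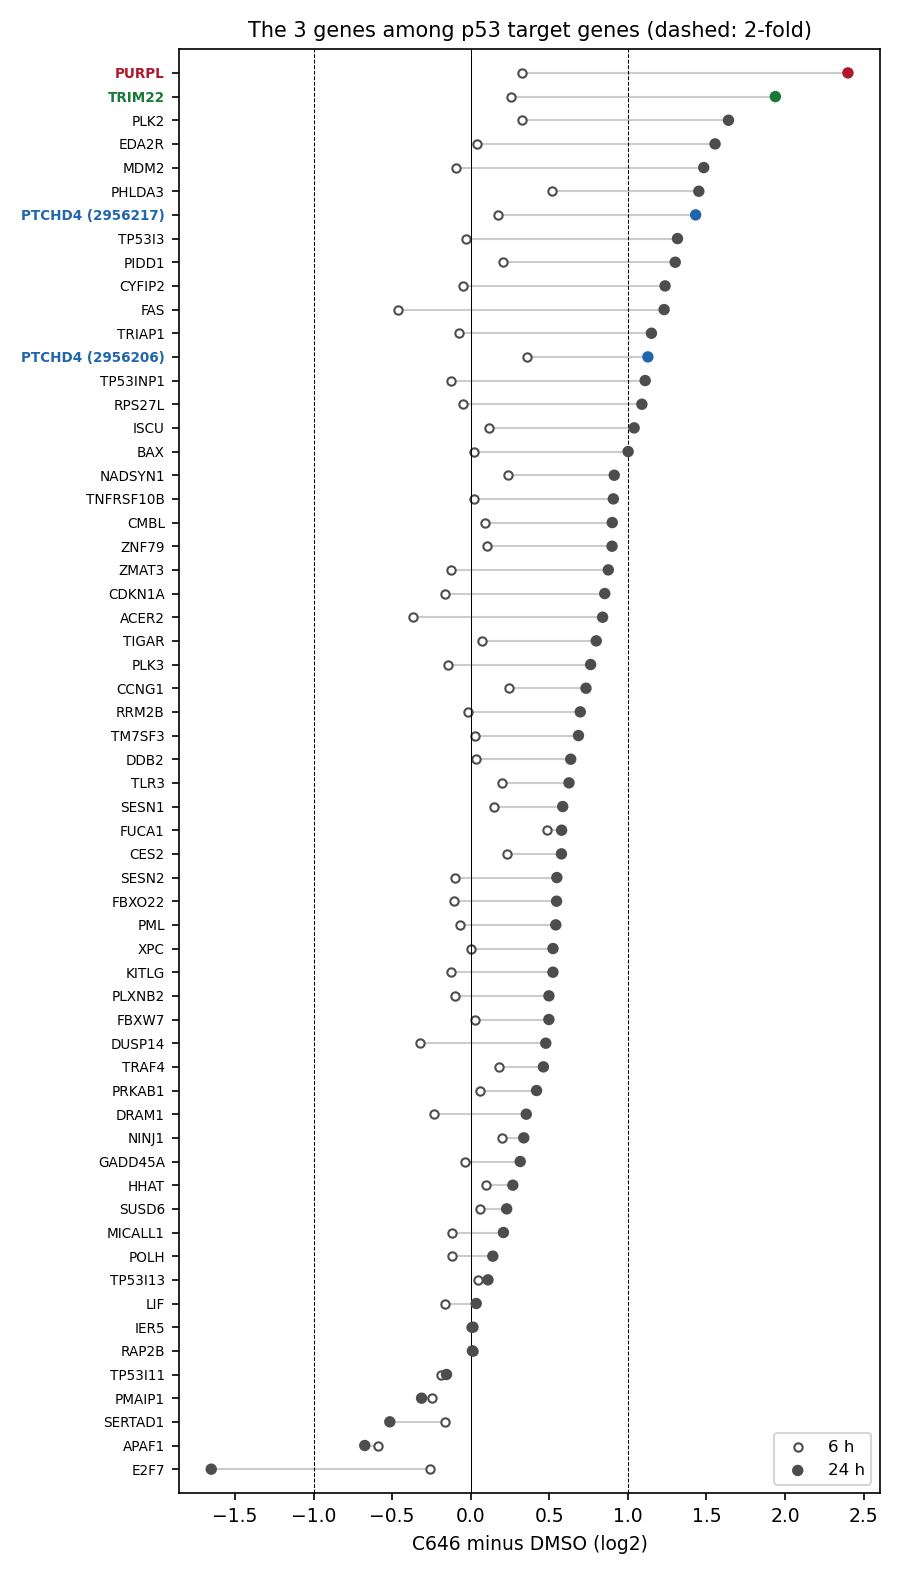
Log2 difference C646 minus DMSO (x axis) at 6 h (open circles) and 24 h (filled circles) for the 56 measured p53 target genes and the 4 probe sets of PURPL, PTCHD4 and TRIM22 (coloured), ordered by the 24 h value, with dashed lines at 2-fold. PURPL at 2.40 and TRIM22 at 1.94 are at the top, above PLK2 at 1.64, and E2F7 at -1.65 is at the bottom.

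Regulators and partners of p53 lay closer to 0. The median over 21 measured genes was -0.06 at 24 h, and MDM2 was the 1 gene of 21 (4.76%) past 2-fold, against 0.971% of all named genes higher and 2.88% lower. RCHY1, another ubiquitin ligase of p53, was at 0.36 and the p53 relative TP73 at -0.74. CREBBP, which encodes the C646 target CBP, was at -0.11 at 6 h and 0.02 at 24 h. EP300, which encodes p300, had no probe set of its own. The probe set annotated to both EP300 and MIR1281 was at -0.15 at 6 h and -0.10 at 24 h. ELAVL1, an RNA-binding protein gene of this list, was at 0.08 and 0.05.

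Noncoding RNAs linked to p53 offered few comparisons with PURPL, since 4 of the 9 listed had a probe set of their own and 3 of those lay above the filter. TP53TG1 read 3.90 and 4.11 with DMSO and 4.32 and 4.91 with C646, which was higher by 0.42 at 6 h and 0.80 at 24 h. TUG1 was at 0.19 at 24 h. NORAD was at -0.38 and -0.35, on a probe set numbered among those of another chromosome. None of the 3 was past 2-fold. With 0.971% of all named genes 2-fold higher and 2.88% lower at 24 h, a count of 0 among 3 is near the background.

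**Figure D5:**
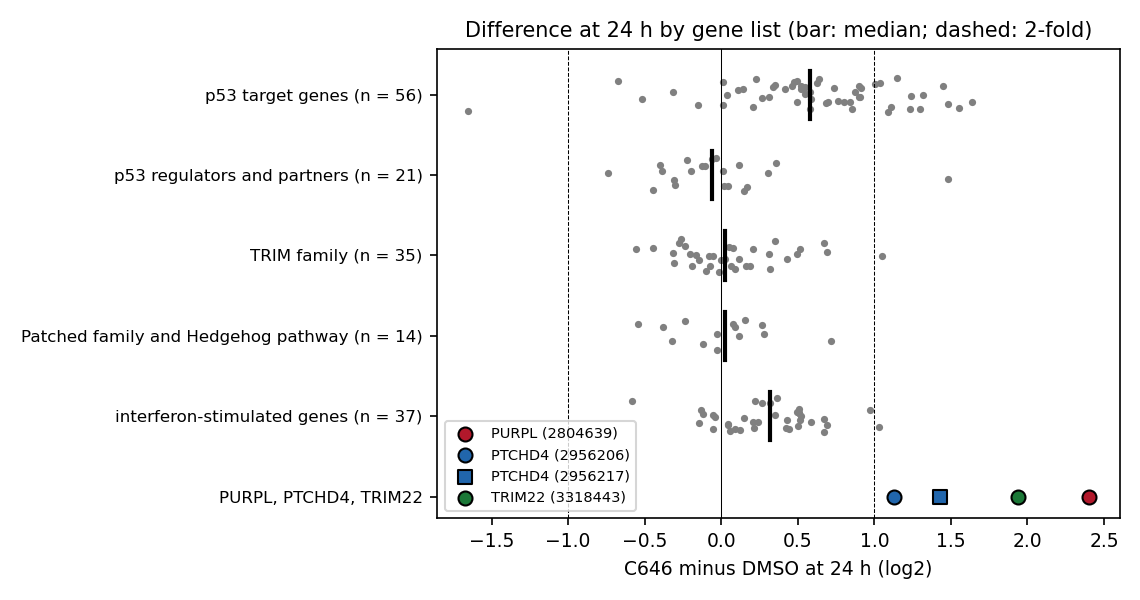
Log2 difference C646 minus DMSO at 24 h (x axis) for each measured gene (grey points) of 5 gene lists, with a black bar at the median and dashed lines at 2-fold; MDM2, HHAT and some TRIM genes stand in more than 1 list. The medians are 0.58 for p53 target genes, -0.06 for p53 regulators, 0.02 for the TRIM family, 0.03 for the Patched and Hedgehog list and 0.32 for interferon-stimulated genes, and the 4 coloured probe sets of the 3 genes lie at 1.13 to 2.40.

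The nearest measured genes on the same chromosomes, 3 on each side of each member and 18 in all, had 24 h differences of -0.74 to 0.37. None is adjacent, as they stand 3 to 39 genes away in RefSeq's order, and 13 of the 18 lay below the filter. Above the filter around PURPL were DROSHA at -0.07 and C5orf22 at 0.37, and the cadherin genes CDH9, CDH10 and CDH6 lay below it. Above it around PTCHD4 were CD2AP at -0.13, MMUT at 0.32 and CENPQ, a centromere protein gene, at -0.74. The 6 measured neighbours of TRIM22, 5 of them olfactory receptor genes, all lay below the filter.

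The genes whose pattern over the 4 arrays was most like each member were found by Euclidean distance after each gene was centred on its own mean. They were sought among the 10707 named genes above the filter, less small RNA genes and LOC symbols. Since 4 arrays hold few patterns, closeness is a description only. Nearest to PURPL were SULF2, a sulfatase gene (distance 0.32), DNAI3 (0.33), PRSS35 (0.39), TRIM22 (0.45), the Wnt antagonist gene DKK1 (0.55) and EDA2R (0.63). Nearest to TRIM22 were SULF2 (0.40), EDA2R (0.43), PURPL (0.45), MDM2 (0.54), DNAI3 (0.58) and DKK1 (0.58).

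PTCHD4 probe set 2956206 had 1 close neighbour. PCLO, which encodes a presynaptic scaffold protein, lay at a distance of 0.31, with a DMSO drift of 1.26, a C646 minus DMSO difference of 0.04 at 6 h and one of 1.32 at 24 h. The next were TRIM22 (0.81), PCDH18 (0.86), SLC44A2 (0.93), EDA2R (0.95) and MDM2 (1.02). PTCHD4 probe set 2956217 was nearest to FAM169A-AS1 (0.14), DKK1, MDM2, EDA2R and SLC9A2 (each 0.24) and PIDD1 (0.26). FAM169A-AS1 read 3.80 and 4.00 with DMSO and 3.83 and 5.57 with C646, so like PURPL it was near the filter level except with C646 at 24 h. EDA2R was among the 6 nearest of all 4 probe sets, and MDM2 and DKK1 each of 3.

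As to the cells, all 8 melanocyte lineage markers with a probe set of their own lay above the filter, with PMEL at 10.69 to 10.95 and SOX10 at 6.99 to 7.72. With C646 at 24 h S100B was higher than with DMSO by 1.49 (2.82-fold), MITF by 0.90 and SOX10 by 0.74. Their differences at 6 h were 0.61, 0.79 and 0.29. At 24 h MLANA was at 0.40, TYRP1 at 0.15, PMEL at 0.08, RAB27A at -0.02 and SLC45A2 at -0.05. Over the 8 markers the median was 0.35 at 6 h, with 7 above 0, and 0.27 at 24 h, with 6 above 0. Of all named genes 50.7% lay above 0 at 6 h and 55.1% at 24 h. S100B was the only one of the 8 (12.5%) past 2-fold, at 24 h, against 0.971% of all named genes higher and 2.88% lower. Of the markers of leukocytes, in which TRIM22 is known to be abundant, 2 of 8 lay above the filter. These were CD68, at 7.62 to 7.77 over the 4 arrays, and TYROBP, at 4.20 to 4.25. PTPRC, which marks all leukocytes, read 3.34 to 3.37 with DMSO and 3.33 to 3.35 with C646, under the filter level throughout. The log2 values of the 8 leukocyte markers summed to 32.7 to 32.9 with DMSO and 33.1 with C646 at either time. LYZ, whose mean lay below the filter, was higher with C646 by 0.33 at 6 h and 0.39 at 24 h. At 24 h CD3E was at 0.13, CD68 at 0.06, TYROBP at 0.05, PTPRC at -0.04, CD14 at -0.105, CD2 at -0.11 and MS4A1 at -0.18. Markers above the filter numbered 2 of 5 for keratinocytes, 2 of 7 for fibroblasts and 2 of 6 for endothelium. The endothelial receptor gene KDR was higher with C646 by 0.53 at 6 h and 0.68 at 24 h, whereas PECAM1 and CDH5 lay under the filter level on all 4 arrays. The part of these markers in the result was not tested. In bulk RNA, more cells with a transcript and more transcript per cell cannot be told apart. Across all probe sets the correlation of the C646 24 h array with each other array was 0.976 to 0.979, against 0.991 to 0.996 among the remaining 3.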

How the data were processed

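Total RNA (100 ng per sample) of 4 WM35 samples was labelled and hybridised to 1 exon array each, per the labels' protocols. The authors deposited log2 expression values of 27631 gene-level probe sets. The log2 scale follows from the range of the values, and array medians of 4.39 to 4.41 show a common scale. The sources used here do not state how they were summarised and normalised. The build hg19 is named in the submitters' processing notes, and no coordinates were taken from it.

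Gene symbols came from the platform annotation (20429 probe sets with 1 symbol, 4232 with several, 2970 with none) and were updated by Entrez identifier with RefSeq's GRCh38.p14 gene table (20362 matched, 67 kept as given). Probe sets whose mean reached the 40th percentile (3.96) were kept, 16579 in all; the highest-mean probe set stood for a gene. Differences are array minus array, called at 2-fold, computed with Python 3.11.15, pandas 2.3.3 and numpy 2.4.6 and tested on simulated data. No test was made, as each group is 1 array. The genes named are the 3 with all their probe sets and the 3 measured neighbours per side. The 6 of most like pattern per probe set were added, with small RNAs and LOC symbols left out. CREBBP and EP300 were named as targets of C646. Of each list all genes past 2-fold and the 2 highest and lowest at 24 h were named. GLI1, ELAVL1 and the cell type markers were named after their values were seen. The members and lists were chosen with earlier results of these data known. A probe set counted as numbered among another chromosome's where most of its nearest-numbered probe sets belong to genes elsewhere. Alternatives were the filter, quantile normalization, a common median, the vehicle reference and the probe set used.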

Additional observations from a re-analysis of the deposited data

Results flagged for a closer look

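Named genes were picked out where the C646 minus DMSO difference had opposite signs at 6 h and 24 h and both exceeded 0.17, the SD of the difference between both DMSO arrays over all probe sets above the filter. FAS was at -0.46 at 6 h and 1.23 at 24 h, unlike PURPL, PTCHD4 and TRIM22, which lay above 0 at both times against the DMSO array of the same time. HHIP was at 0.24 at 6 h and -0.38 at 24 h. Only named genes were screened, so FAS is not singular among p53 target genes. DUSP14 (-0.32 at 6 h and 0.48 at 24 h) and DRAM1 (-0.23 and 0.35), for example, met the same rule. Each value rests on 1 array against 1 array, and the difference between the times was not tested.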

How the results depend on the processing

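No paired analysis was possible because each group is 1 array and the labels give no replicate numbers. A log2 value was counted as moved where it changed by more than 0.17. Of 38 values of the 3 genes under an alternative, 28 stayed within that, among them every value under quantile normalization and with the arrays shifted to a common median. Against the mean of both DMSO arrays, PTCHD4 (probe set 2956206) went to -0.48 at 6 h and 1.97 at 24 h, and TRIM22 to -0.072 and 2.27; the DMSO drift of each enters that mean. With the mean of both PTCHD4 probe sets the DMSO drift was 1.02 and the C646 difference over time 2.04. With probe set 2956217 alone, an alternative chosen after seeing the data, PTCHD4 was at 0.17 at 6 h, 1.43 at 24 h, 0.36 over time in DMSO and 1.62 over time under C646. Of 24 counts of 2-fold probe sets 1 differed by more than 1.5 times: 12 were higher at 6 h under a filter at the 60th percentile, which keeps fewer probe sets. Of 72 list medians 70 stayed, and that of the p53-linked noncoding RNAs turned to -0.18 at 6 h and -0.083 at 24 h with that filter, which removed TP53TG1. The p53 target median at 24 h was 0.54 to 0.70 and 12 to 14 genes were 2-fold higher over all settings.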
